A study of Caenorhabditis elegans with 2 samples.

Results

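The piRNA cluster regions of chromosome IV are the stretches of the Caenorhabditis elegans genome from 4500000 to 7000000 (the left cluster) and from 13500000 to 17200000 (the right cluster) on build ce11. Their members here are the regions of a list made from both replicates of a chromatin immunoprecipitation sequencing (ChIP-seq) experiment whose summit, the position of highest signal, fell in either stretch. No threshold on signal was applied. Of the 26002 regions in that list, 1267 were members, with 619 in the left and 648 in the right cluster, and the rest of chromosome IV held 3054. The lists of the single replicates had 1230 of 25000 regions in the clusters for replicate 1 and 1065 of 23268 for replicate 2.

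The study mapped where the protein F22D6.2, listed as mstr-1 in the annotation, was recovered on chromatin of whole worms. Both samples were hermaphrodite young adults of strain OP399, with the genotype unc-119(tm4063) III; wgIs399, collected 67 hours after synchronization by starvation as L1 larvae. The transgene wgIs399 supplied a copy of F22D6.2 fused at the C-terminal end to a GFP-FLAG tag, and an anti-GFP antibody recovered it, so what was mapped is the tagged copy in 1 transgenic line. The 2 biological replicates form 1 group with the same control and no second condition, and whole animals do not show which tissue a signal came from. Values are therefore described for the pooled list and for each replicate list, without a test.

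In C. elegans the piRNAs are called 21U RNAs: short RNAs that begin with uridine and are bound by the Argonaute PRG-1 in the germ line, where they guide the silencing of foreign and transposon transcripts. Most come from a great number of tiny genes, named 21ur, each with its own promoter and packed into these clusters between and inside protein-coding genes. Many carry an upstream element, the Ruby motif, with the core CTGTTTCA, and the factors SNPC-4, PRDE-1 and TOFU-5 bind across the clusters to drive their transcription.

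By the Ensembl annotation, the clusters held 14204 21ur genes and the rest of chromosome IV held 510. The right cluster alone had 11388 and the left cluster 2816, so the clusters carried 96.5% of the chromosome's 21ur genes and 92.5% of all annotated ones. Read on the gene's own strand, the letters CTGTTTCA stood in the 60 bases upstream of 34.8% of the cluster 21ur genes. The share was 31.6% of those in the rest of the chromosome. The annotated 21ur sequence began with T in 96.2% of the cluster genes. In the 4944 cluster genes with the core it started a median of 46 bases upstream of the 21ur sequence, with quartiles of 45 and 47. The shorter word GTTTC, which lies within CTGTTTCA, stood upstream of 75.8% of the cluster genes, against 66.7% of those in the rest of the chromosome.

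The sequences below show what a 21ur gene looks like and which ones lay closest to a strong ChIP-seq peak. They are the 5 21ur genes nearest to a thresholded summit (a summit that passed the authors' reproducibility threshold) and then the other 2 genes beside the 3 highest members within 50 bp of a 21ur 5' end. Each line gives 60 bases upstream and the 21ur gene, 5' to 3' on the gene's strand, from the RefSeq copy of the assembly. Capitals mark the 21ur gene and, where present, CTGTTTCA, which only 21ur-2469 of these 7 has.
21ur-13200, chrIV:16181035-16181115, minus strand: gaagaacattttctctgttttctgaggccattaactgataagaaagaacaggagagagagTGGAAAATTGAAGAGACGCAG
21ur-13379, chrIV:5756024-5756104, minus strand: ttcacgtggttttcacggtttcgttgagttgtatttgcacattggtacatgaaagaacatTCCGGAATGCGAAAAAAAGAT
21ur-8899, chrIV:5755961-5756041, plus strand: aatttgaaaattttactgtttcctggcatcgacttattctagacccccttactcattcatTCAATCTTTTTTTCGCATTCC
21ur-5229, chrIV:5967029-5967109, plus strand: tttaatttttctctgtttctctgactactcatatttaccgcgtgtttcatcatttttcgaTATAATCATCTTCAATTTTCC
21ur-2469, chrIV:13919597-13919677, plus strand: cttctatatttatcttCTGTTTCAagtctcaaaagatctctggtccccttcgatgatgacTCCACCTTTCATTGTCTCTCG
21ur-12080, chrIV:14414454-14414534, minus strand: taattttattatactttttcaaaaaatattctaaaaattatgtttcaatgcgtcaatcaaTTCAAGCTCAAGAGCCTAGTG
21ur-4820, chrIV:15900538-15900618, minus strand: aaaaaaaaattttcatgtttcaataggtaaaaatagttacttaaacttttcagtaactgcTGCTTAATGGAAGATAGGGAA

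Listed regions were sparser in the piRNA clusters than in the rest of the chromosome. The pooled list had 204 regions per Mb in the clusters and 270.4 per Mb in the rest of chromosome IV, a ratio of 0.756. In replicate 1 the values were 198 per Mb in the clusters and 253 per Mb in the rest, and in replicate 2 they were 172 per Mb in the clusters and 249 per Mb in the rest. The right cluster, with most of the 21ur genes, was the sparser one, at 175 regions per Mb, while the left cluster had 248 per Mb. Both replicates gave this order, with 168 in the right and 243 in the left cluster for replicate 1, and 151 in the right and 203 in the left cluster for replicate 2.

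**Figure D1:**
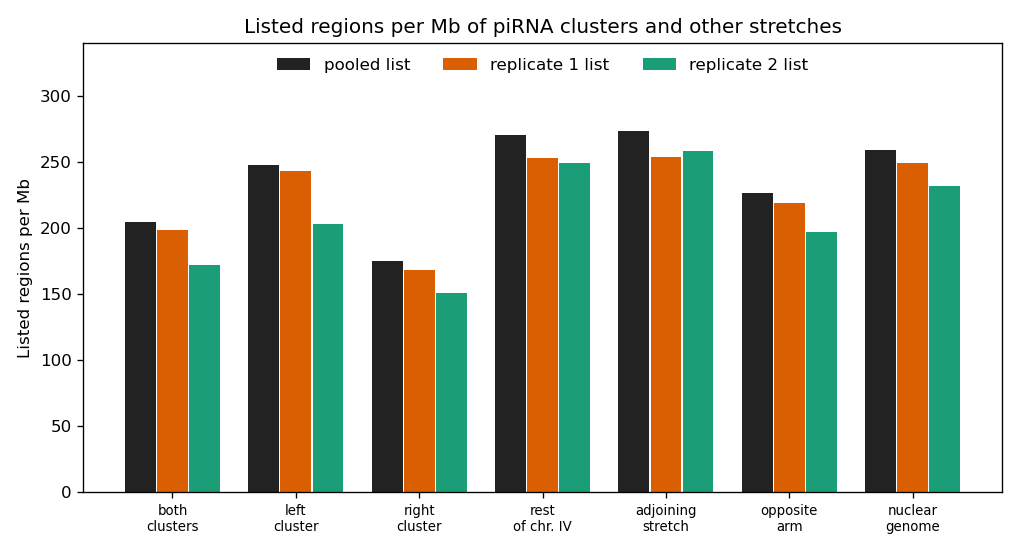
Listed regions per Mb (vertical axis) in both piRNA clusters, each cluster, the rest of chromosome IV, the stretch adjoining the left cluster, the opposite arm and the nuclear genome, with 1 bar each for the pooled, replicate 1 and replicate 2 lists. The right cluster has the lowest bar of each list, 175, 168 and 151 regions per Mb.

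Chromosome arms and centres differ in gene and repeat content, so each cluster was also set beside a stretch of its own length. The right cluster's density was 0.773 times that of the opposite arm, from 0.3 to 4 Mb, in the pooled list, 0.769 times in replicate 1 and 0.764 times in replicate 2. Gene density and GC content were not matched, with 124 protein-coding genes per Mb and 32.3% GC in the right cluster and 157 genes per Mb and 35.98% GC in that arm. Repeat content was closer: 45.4% of bases were soft-masked as repeats in the right cluster and 46.4% in that arm. Of the 31-base words, 87.1% were unique in the genome in the right cluster and 87.0% in that arm. The left cluster's density was 0.906 times that of the adjoining stretch from 7 to 9.5 Mb in the pooled list, 0.957 times in replicate 1 and 0.785 times in replicate 2. The left cluster had 193 protein-coding genes per Mb and 33.96% GC, and the adjoining stretch 234 genes per Mb and 34.6% GC. Repeat content was not matched in this pair, with 35.4% of bases soft-masked in the left cluster and 29.3% in the adjoining stretch. Unique 31-base words made up 90.4% in the left cluster and 92.8% in that stretch. Counted per Mb of unique 31-base words, the ratio of both clusters to the rest of the chromosome was 0.771.

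How high the listed regions reached differed little. The deposited signal value, the authors' own value for a region over the control on a scale that was not given, had a median of 21.4 in the clusters and 21.9 in the rest of chromosome IV. The ratio of these medians was 0.977 in the pooled list, 0.986 in replicate 1 and 0.955 in replicate 2. A deposited −log10 q-value of at least 1 was reached by 194 members, or 15.3%, and by 490 regions, or 16.04%, in the rest of the chromosome.

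The authors' threshold was passed by 33 members, which is 2.60%, and by 76 regions in the rest of chromosome IV, which is 2.49%. Over all chromosomes 3.07% of listed regions passed, so the clusters' share lay near both values. Per Mb this came to 5.32 thresholded peaks in the clusters, with 6.80 in the left and 4.32 in the right one, and to 6.73 in the rest of the chromosome.

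Member summits lay farther from 21ur genes than evenly spaced positions did. The median distance from a member summit to the nearest 21ur 5' end was 506 bp, against 249 bp for positions placed every 100 bp across the clusters. Within 500 bp of a 21ur 5' end lay 49.7% of member summits and 61.9% of evenly spaced positions, a ratio of 0.804 in the pooled list, 0.807 in replicate 1 and 0.847 in replicate 2. Each cluster alone gave a higher ratio than both together. The left cluster had 0.858 in the pooled list, 0.833 in replicate 1 and 0.898 in replicate 2. The right cluster had 0.815 in the pooled list, 0.838 in replicate 1 and 0.856 in replicate 2. Closer in, within 50 bp, the 127 members made up 10.0% of summits, against 16.8% of evenly spaced positions, a ratio of 0.595 in the pooled list, 0.584 in replicate 1 and 0.692 in replicate 2. At this distance the left cluster had 0.717 in the pooled list, 0.676 in replicate 1 and 0.897 in replicate 2. The right cluster had 0.607 in the pooled list, 0.610 in replicate 1 and 0.672 in replicate 2. In the rest of chromosome IV the ratio within 500 bp was 0.957 in the pooled list, 0.982 in replicate 1 and 1.01 in replicate 2. Within 50 bp it was 0.399 there on 5 pooled summits, 0.598 on 7 in replicate 1 and 0.781 on 9 in replicate 2. Within 50 bp the ratio was thus below 1 outside the clusters as well, though on few summits.

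Around the 5' ends of cluster 21ur genes, the density of pooled summits fell to 0.550 of the even density in the first 100 bp downstream, and it was 0.613 in the 100 bp upstream. The same bins held 0.654 downstream and 0.577 upstream in replicate 1, and 0.712 downstream and 0.756 upstream in replicate 2. Protein-coding genes of the same clusters showed the opposite shape. Between 200 and 100 bp upstream of their 5' ends the pooled density was 2.18 times the even density in the left cluster, 2.86 times in the right cluster and 1.88 times in the rest of the chromosome.

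**Figure D2:**
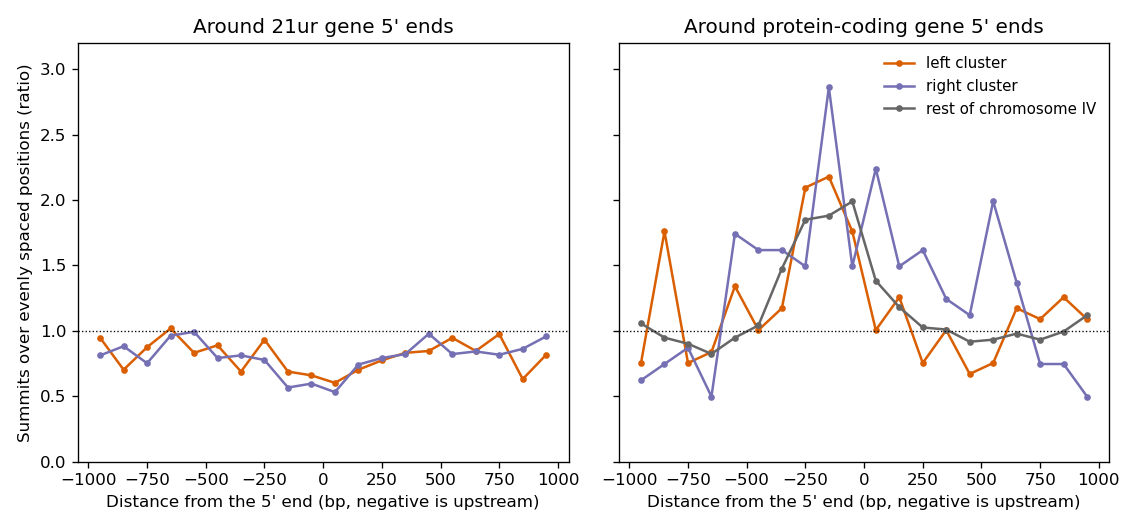
Density of pooled summits divided by that of evenly spaced positions (vertical axis) by distance in bp from gene 5' ends (horizontal axis, negative upstream), in bins of 100 bp, for 21ur genes (left panel, both clusters) and protein-coding genes (right panel, both clusters and the rest of chromosome IV). The 21ur lines lie lowest just around the 5' end, and the protein-coding lines are highest upstream of it; the dotted line marks a ratio of 1.

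Seen from the genes, 1801 of the 14204 cluster 21ur genes, or 12.7%, had a pooled summit within 500 bp of the 5' end. The share was 16.3% in the left and 11.8% in the right cluster. Outside the clusters, 106 of 510 21ur genes on chromosome IV, or 20.8%, had one, and over all chromosomes the share was 13.3%, most of which are the cluster genes themselves. Replicate 1 gave 12.5% in the clusters and 21.96% in the rest of the chromosome, and replicate 2 gave 11.9% in the clusters and 20.4% in the rest.

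Thresholded summits lay within 500 bp of 32 cluster 21ur genes, or 0.225%, and of 1 of the 510 in the rest of chromosome IV, or 0.196%. The share over all chromosomes was 0.26%, a pool made up mostly of the cluster genes themselves. On the other chromosomes 7 of 649 21ur genes, or 1.08%, had one. Neighbouring 21ur genes share a peak: 13 of the 33 thresholded members accounted for all 32 genes. Some of these 13 also lay within 500 bp of a tRNA 5' end, as given below. Cluster genes with CTGTTTCA upstream had a thresholded summit within 500 bp in 17 cases, or 0.344%, and those without it in 15, or 0.162%. The 2 clusters differed in this. In the right cluster the thresholded shares were 0.314% with CTGTTTCA and 0.0794% without it, and in the left cluster 0.448% with and 0.530% without. For pooled listed summits, threshold or not, the shares over both clusters were 13.2% of genes with CTGTTTCA and 12.4% of those without it. In the left cluster they were 15.3% with and 16.9% without. Within 100 bp, over both clusters, they were 1.94% with and 2.38% without.

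The motif itself was also rarer at summits. Windows of 300 bp centred on member summits held CTGTTTCA on either strand in 166 of 1267 cases, or 13.1%, against 20.9% of evenly spaced windows in the clusters. Replicate 1 had it in 164 of 1230 summit windows, or 13.3%, and replicate 2 in 181 of 1065. In the rest of chromosome IV, 1.87% of summit windows and 2.31% of evenly spaced windows held it. Only 1 of the 33 thresholded members had the motif in its window, the fkh-7 intron member described below. The absence of these letters says nothing about which factor is bound.

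Base composition moved with this pattern. Member summit windows had 36.5% GC, against 32.96% for evenly spaced windows in the clusters, while the rest of the chromosome had 37.6% at summits and 35.5% at even positions. The 60 bases upstream of cluster 21ur genes are AT-rich, with 25.7% GC. Positions were therefore divided by the GC content of the surrounding 300 bp, a division made after the data were seen.

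Where GC was below 30%, the clusters had 111 pooled summits per Mb within 100 bp of a 21ur 5' end and 99.4 per Mb beyond 500 bp. Replicate 1 had 99.1 per Mb near and 102 per Mb far in this class, and replicate 2 had 112 per Mb near and 104 per Mb far. This AT-rich class held most of the sequence beside 21ur genes. With both clusters added together, summits near 21ur genes were denser there in the pooled list and in replicate 2, and slightly sparser in replicate 1. Within each cluster alone they were denser near 21ur genes in the pooled list and in both replicate lists. Replicate 1 had 138 per Mb near and 121 per Mb far in the left cluster. In the right cluster it had 89.8 per Mb near and 78.1 per Mb far, the latter on 15 summits. Between 30% and 35% GC the densities were 131 per Mb near and 276 per Mb far in the pooled list, 135 near and 238 far in replicate 1, and 125 near and 217 far in replicate 2. Weighted by GC class in this way, the ratio of summits within 500 bp of a 21ur 5' end to even positions was 0.945, against 0.804 without the division. The part of GC content in the pattern was not tested.

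**Figure D3:**
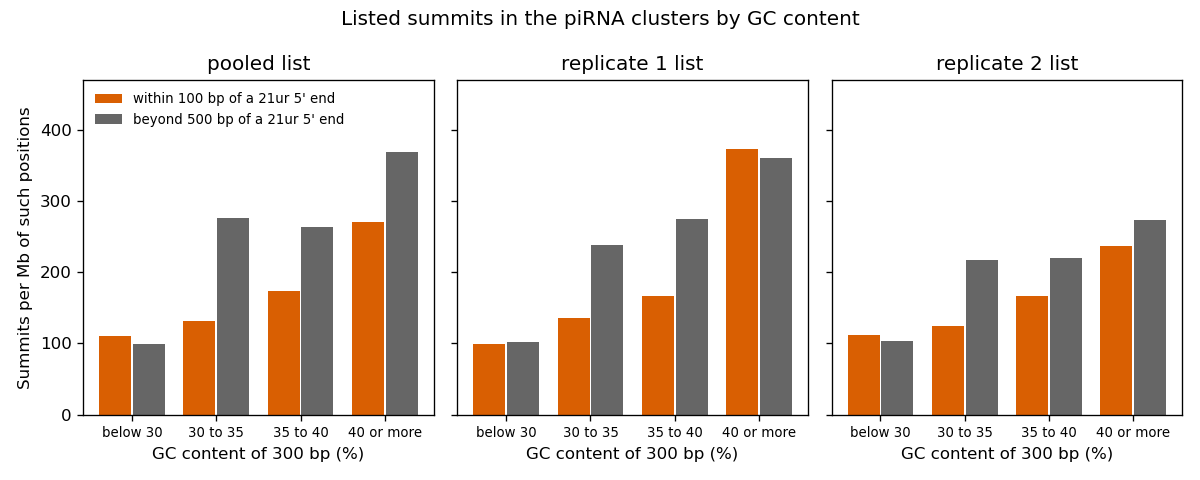
Listed summits per Mb of positions in the piRNA clusters (vertical axis) by GC content of the surrounding 300 bp (horizontal axis, percent), within 100 bp (orange) and beyond 500 bp (grey) of a 21ur 5' end, for the pooled, replicate 1 and replicate 2 lists. In each list both bars are lowest below 30% GC, where the orange and grey ones are nearly level. The bars add both clusters together, and within each cluster alone the density near 21ur ends was the higher one in that class.

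The same relation appeared at the scale of 100 kb windows. Across the 62 cluster windows, the number of 21ur genes and the number of pooled listed regions had a Pearson r of -0.48 and a Spearman rho of -0.46. Replicate 1 gave an r of -0.47 and replicate 2 an r of -0.37. Within the left cluster r was -0.21 over 25 windows, and within the right cluster it was -0.30 over 37 windows, both weaker than over the 62 windows together. In the left cluster r was -0.0040 in replicate 1 and -0.093 in replicate 2, so the relation was near 0 there in both replicate lists. In the right cluster r was -0.28 in replicate 1 and -0.19 in replicate 2. These windows share the same libraries, neighbouring windows are not independent, and GC content had an r of 0.39 with the listed regions over the same 62 windows.

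**Figure D4:**
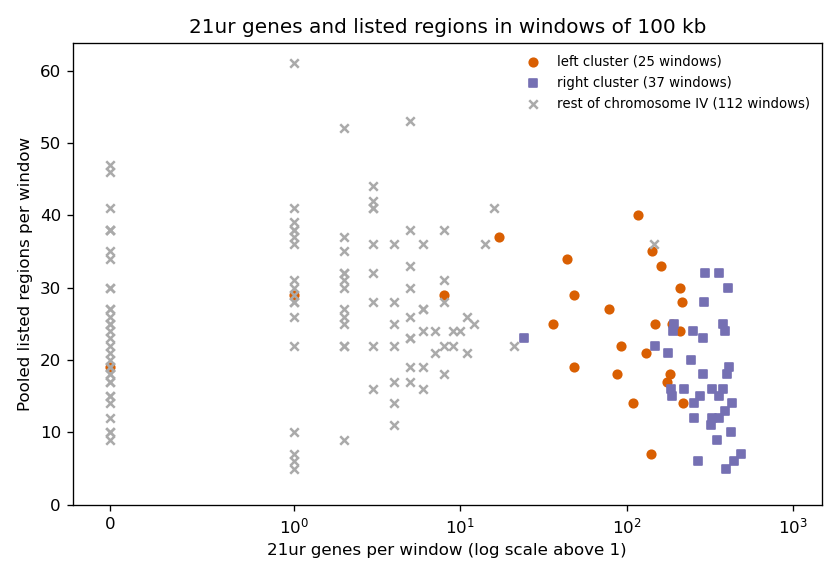
Number of 21ur genes (horizontal axis, log scale above 1) and of pooled listed regions (vertical axis) in windows of 100 kb of the left cluster (circles), the right cluster (squares) and the rest of chromosome IV (crosses). Windows of the right cluster lie farthest right and mostly low, with a median of 16 regions, against 25 in the left cluster and 26 in the rest of the chromosome.

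The 4 cluster windows with fewer than 20 21ur genes had a median of 29 listed regions, and the 7 windows with 400 or more had a median of 14. All 4 of the former lay in the left cluster, and all 7 of the latter in the right cluster. Their median numbers of protein-coding genes were 18 in the former and 9 in the latter. This contrast is therefore also between the clusters, and the part of 21ur gene number in it was not tested. The window with the most members, chrIV:5300001-5400000 in the left cluster, had 40 members beside 118 21ur and 31 protein-coding genes. The one with the fewest, chrIV:14300001-14400000 in the right cluster, had 5 members beside 397 21ur and 11 protein-coding genes, although 95.6% of its 31-base words were unique. The longest stretch of the left cluster without a pooled summit ran over 59846 bp, from 5473719 to 5533564. It held 134 21ur genes as well as fem-1, a sex determination gene, the netrin receptor gene unc-5 and snpc-3.1, a relative of a small nuclear RNA transcription factor subunit. In the right cluster the longest such stretch was 60761 bp, from 16018958 to 16079718, with 313 21ur genes and the catenin gene jac-1. Gaps nearly as long occurred elsewhere, and the longest in the rest of the chromosome was 56094 bp. None of these gaps was empty in the replicate lists. The left cluster's gap held 1 summit of replicate 1 and 2 of replicate 2. The right cluster's gap held 4 of replicate 1 and 3 of replicate 2, and the gap in the rest held 7 of replicate 1 and 2 of replicate 2.

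By annotation class, members were sparse in intergenic sequence. The intergenic class left out sequence near protein-coding 5' ends and near tRNA, snRNA, snoRNA or rRNA genes, but not sequence at piRNA genes. This class held 28.7% of member summits but 44.1% of evenly spaced positions in the clusters. That is 133 summits per Mb of intergenic sequence in the clusters, against 213 per Mb in the rest of chromosome IV. Both replicates had the same order, with 124 in the clusters and 190.4 in the rest for replicate 1, and 117 in the clusters and 193 in the rest for replicate 2. Coding exons were alike in the pooled list, with 269 summits per Mb of exon in the clusters and 272 in the rest. Replicate 2 differed here, with 182 per Mb in the clusters and 251 in the rest of the chromosome.

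Protein-coding 5' ends lay near more of the members than of the even positions. No more than 500 bp from one lay 21.1% of member summits and 14.4% of evenly spaced positions, a ratio of 1.46, against 25.8% of summits and 19.4% of positions in the rest of the chromosome, a ratio of 1.33. Of the 941 protein-coding genes in the clusters, 242, or 25.7%, had a pooled summit this close, against 730 of 2340, or 31.2%, in the rest of chromosome IV and 30.2% over all chromosomes. A thresholded summit lay there for 15 cluster genes, or 1.59%, and for 37 genes, or 1.58%, in the rest of the chromosome, against 2.06% over all chromosomes.

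Transfer RNA genes, transcribed by RNA polymerase III, were often beside a member. Of the 41 tRNA genes in the clusters, 31, or 75.6%, had a pooled summit within 500 bp of the 5' end, against 22 of 30, or 73.3%, in the rest of chromosome IV and 80.6% over all chromosomes. Thresholded summits lay beside 5 of the 41 in the clusters and 3 of the 30 in the rest, where the share over all chromosomes was 18.6%. The highest of these was a tRNA-Lys gene, WBGene00022903, whose summit at 5967191 had a signal value of 120 and lay 31 bp from its 5' end. A tRNA-Ala gene, WBGene00014560, came next with 96.7, and a pair of tRNA-Gly genes, WBGene00014573 and WBGene00014572, had 90.8 and 81.0. The fifth, the tRNA-Arg gene WBGene00014324, had 91.1 at a summit 307 bp away that also lay within 500 bp of 6 21ur genes. tRNA genes have near-identical copies, and 80.7% to 82.7% of the 31-base words were unique in the windows of the first 4 of these peaks.

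The 33 thresholded members divided into 12 beside a protein-coding gene (summit at most 500 bp from its start), 13 within 500 bp of a 21ur 5' end and 8 near neither. None lay near both. Some in each group lay at tRNA genes. Among the 13 were the summits 31 bp from the tRNA-Lys, 307 bp from the tRNA-Arg and 3 bp from the tRNA-Gly gene WBGene00014572. Of the 12, 11 were upstream of the nearest protein-coding 5' end. The other lay 327 bp downstream of that of Y43D4A.5 and 6 bp from the tRNA-Gly gene WBGene00014573. The tRNA-Ala summit was among the 8. Among all members, those within 500 bp of a 21ur 5' end had a median signal value of 20.7, and those farther away had 22.3. Close to both a 21ur and a protein-coding 5' end were 74 members, with a median of 19.4 and a highest value of 62.9.

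The windows of the thresholded members that carried either of a pair of words noticed in several of them are printed here, because these include the highest member and several promoters. Each is 151 bases centred on the summit, plus strand of ce11 from RefSeq, and capitals mark CGAGAGGA or GCGCACTT on either strand.
rpl-20 and Y17G9B.5, chrIV:4749999-4750149: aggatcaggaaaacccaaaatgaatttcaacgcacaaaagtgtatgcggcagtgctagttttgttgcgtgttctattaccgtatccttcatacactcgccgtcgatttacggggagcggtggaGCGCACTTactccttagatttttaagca
ntl-11, chrIV:15471550-15471700: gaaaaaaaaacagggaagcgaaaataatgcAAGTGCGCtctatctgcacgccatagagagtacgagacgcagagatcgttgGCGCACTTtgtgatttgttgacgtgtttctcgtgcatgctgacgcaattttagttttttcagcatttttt
Y73F8A.27, chrIV:15472539-15472689: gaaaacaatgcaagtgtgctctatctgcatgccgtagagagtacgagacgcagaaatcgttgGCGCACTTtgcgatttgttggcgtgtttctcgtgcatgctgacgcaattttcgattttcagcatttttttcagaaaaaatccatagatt
W03F8.4, chrIV:5183770-5183920: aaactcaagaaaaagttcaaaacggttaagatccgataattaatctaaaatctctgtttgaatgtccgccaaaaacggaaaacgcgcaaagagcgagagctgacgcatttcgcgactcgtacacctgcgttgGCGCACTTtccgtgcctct
sar-1, chrIV:4513613-4513763: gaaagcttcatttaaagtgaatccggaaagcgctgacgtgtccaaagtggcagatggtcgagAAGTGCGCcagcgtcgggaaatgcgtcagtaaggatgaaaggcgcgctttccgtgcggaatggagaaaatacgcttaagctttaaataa
sqd-1, chrIV:6323783-6323933: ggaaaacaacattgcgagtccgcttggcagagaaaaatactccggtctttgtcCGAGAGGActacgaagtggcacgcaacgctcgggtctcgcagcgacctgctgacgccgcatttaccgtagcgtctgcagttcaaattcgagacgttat
Y73B6BL.29, chrIV:6321834-6321984: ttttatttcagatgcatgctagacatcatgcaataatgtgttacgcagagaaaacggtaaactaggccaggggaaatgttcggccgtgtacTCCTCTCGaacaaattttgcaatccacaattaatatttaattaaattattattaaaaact
Y65A5A.2 intron, chrIV:16415210-16415360: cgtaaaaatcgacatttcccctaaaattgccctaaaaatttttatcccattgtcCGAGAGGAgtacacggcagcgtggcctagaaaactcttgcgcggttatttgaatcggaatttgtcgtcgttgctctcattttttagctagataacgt
ari-1.4 intron, chrIV:15526597-15526747: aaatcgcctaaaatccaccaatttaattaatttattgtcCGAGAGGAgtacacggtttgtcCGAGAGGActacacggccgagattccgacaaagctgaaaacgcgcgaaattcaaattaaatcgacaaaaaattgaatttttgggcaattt

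The highest member lay in the left cluster between rpl-20, a gene for a ribosomal protein of the large subunit, and Y17G9B.5, a gene on the opposite strand. Its interval was chrIV:4749912-4750238 with the summit at 4750074, 166 bp upstream of the 5' end of Y17G9B.5. Its signal value was 214 in replicate 1, 216 in replicate 2 and 432 in the pooled list, where it ranked 26. The nearest 21ur gene was 17650 bp away. In the rest of the chromosome, the 3 highest thresholded peaks had 327 in an intron of the autophagy gene epg-9, 311 beside the ribosomal protein gene rpl-12 and lin-54, and 306 in an intron of the protein kinase gene pkg-2. The rpl-20 member was thus higher than any other listed region of chromosome IV in the pooled list.

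Next in the left cluster came a summit at 4725797, at the noncoding RNA gene WBGene00195021, with 111 in replicate 1, 118 in replicate 2 and 227 in the pooled list. Only 53.0% of the 31-base words in its window were unique. A neighbour at 4728077, at the pseudogene WBGene00023323, had a pooled value of 176 with 41.7% unique words, so the placing of reads at both is uncertain. The third was the summit at 6336864 in unique sequence with no annotated gene within 500 bp. It had 86.5 in replicate 1, 122 in replicate 2 and 205 in the pooled list, and lay 789 bp upstream of ipla-6.

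Promoters filled most of the following ranks. A summit 130 bp upstream of ntl-11, which encodes a subunit of the CCR4-NOT deadenylase complex, was the highest of the right cluster, with 87.5 in replicate 1, 97.7 in replicate 2 and 185 in the pooled list. About a kilobase away, a summit 195 bp upstream of Y73F8A.27 had 52.7 in replicate 1, 77.0 in replicate 2 and 131 in the pooled list. The printed windows of this pair were nearly copies of each other, with 117 of 132 positions identical when aligned without gaps. The gene sqd-1, for an RNA-binding protein, had a summit 316 bp upstream with 77.5 in replicate 1, 91.4 in replicate 2 and 170.2 in the pooled list. C49A9.10 had 85.0 in replicate 1, 74.7 in replicate 2 and 161 in the pooled list. The histone demethylase gene jmjd-1.2 shared a summit with F29B9.11, at 46.9 in replicate 1, 86.3 in replicate 2 and 135 in the pooled list.

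Members beside 21ur genes were fewer among the highest. The summit at 14594466 in the right cluster, within 500 bp of 21ur-865 and 21ur-12748, had 56.3 in replicate 1, 110.0 in replicate 2 and 164 in the pooled list. It lay 363 bp upstream of the 5' end of 21ur-865. At 16181032 the summit was 23 bp downstream of the 5' end of 21ur-13200, with 68.7 in replicate 1, 85.0 in replicate 2 and 147 in the pooled list. It was the only one of the 127 members within 50 bp of a 21ur 5' end that passed the threshold. The next highest of those lay at 21ur-12080, with 40.1 in replicate 1, 21.1 in replicate 2 and 60.3 in the pooled list. At 21ur-4820 the values were 36.6 in replicate 1, 10.6 in replicate 2 and 43.2 in the pooled list. Both were thus higher in replicate 1 than in replicate 2, unlike 21ur-13200.

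An intron of the forkhead gene fkh-7 held the twelfth highest thresholded member, with 62.0 in replicate 1, 53.0 in replicate 2 and 127 in the pooled list, within 500 bp of 21ur-2239, 21ur-8200 and 21ur-14129. Introns of nhr-46, a nuclear hormone receptor gene, held a further pair. Its summit at 5756099 had a pooled value of 84.9 and lay 55 bp upstream of the 5' end of 21ur-13379 and 78 bp downstream of that of 21ur-8899, which overlap on opposite strands as the printed sequences show. The summit beside 21ur-5229, at 102 bp, is the tRNA-Lys summit given above. The one 213 bp upstream of 21ur-2469 had a pooled value of 88.6.

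**Figure D5:**
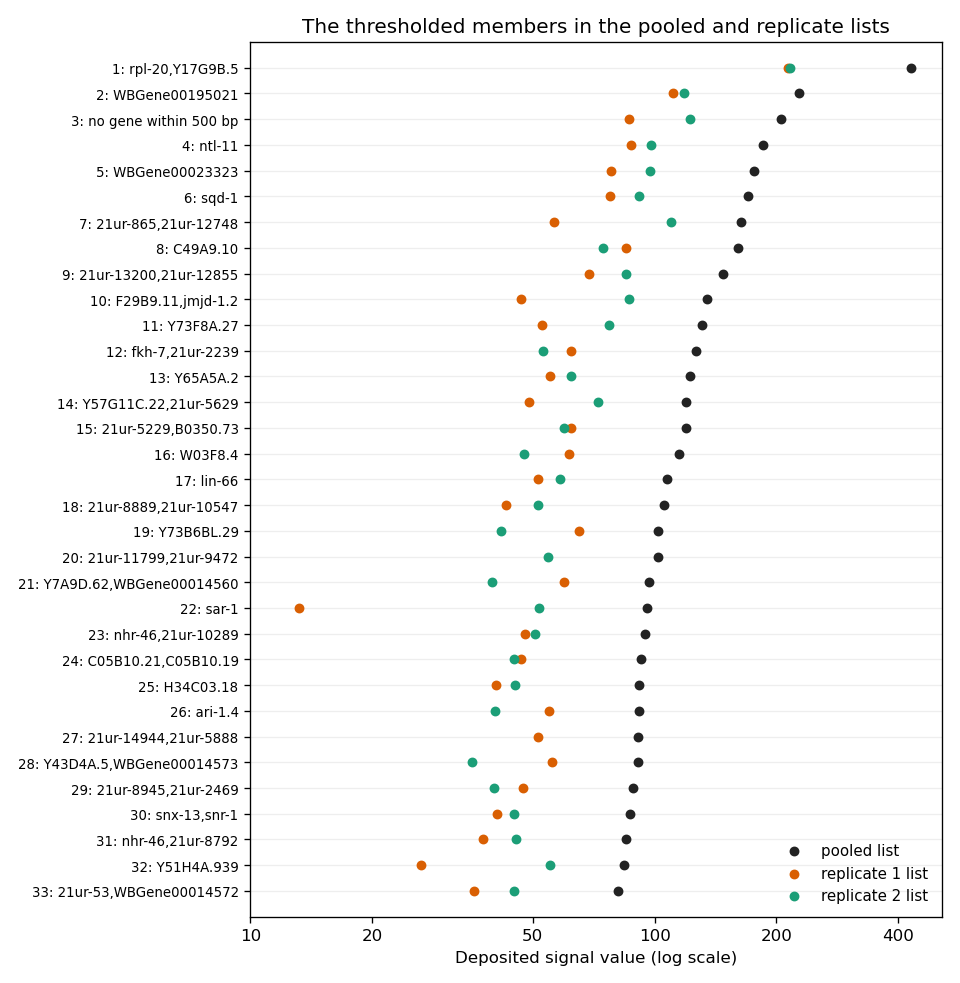
Deposited signal value (horizontal axis, log scale) of each of the 33 thresholded members (rows, by pooled rank, with up to 2 of the genes within 500 bp of or holding the summit) in the pooled list and at the matching summit of each replicate list. The rpl-20 member is highest in all 3 lists, and the sar-1 member has the lowest replicate 1 point.

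Replicate summits within 100 bp were present for 32 of the 33 thresholded members in replicate 1 and for 32 in replicate 2. Ranked within each replicate list, 20 of the 33 were among the 798 highest of both, 798 being the size of the thresholded set. The most unequal pair of ranks belonged to the member upstream of sar-1, the gene of a small GTPase of vesicle transport, with rank 13829 in replicate 1 and 551 in replicate 2. Second was the summit at 16492502, at a noncoding RNA gene, with rank 2405 in replicate 1 and 457 in replicate 2.

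In the clusters, most regions of one replicate had no counterpart in the other. Per the labels the lists include background regions, and their part in this was not tested. Of the 1230 replicate 1 regions in the clusters, 260, or 21.1%, had a replicate 2 summit within 100 bp, against 23.8% in the rest of chromosome IV. Among the 798 highest of replicate 1, 22 of 32 cluster regions and 37 of 65 in the rest were shared. For the 268 members matched in both replicates, the signal values had a Spearman rho of 0.54, against 0.55 for the 688 matched regions in the rest of the chromosome, a description across regions of the same libraries.

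The words printed in capitals were chosen after these windows were seen, so their counts in the clusters are a description. CGAGAGGA stood in the 300 bp windows of 4 of the 33 thresholded members, or 12.1%, against 0.402% of evenly spaced windows in the clusters. In peaks that played no part in the choice, it stood in 5 of 76 thresholded windows, or 6.58%, in the rest of chromosome IV, where 0.719% of evenly spaced windows held it. On the other nuclear chromosomes 28 of 669 thresholded windows held it, or 4.19%, against 0.593% of evenly spaced ones. GCGCACTT stood in 6 of the 33 members, or 18.2%, against 0.444% of evenly spaced windows in the clusters. It was in 2 of 76 thresholded windows, or 2.63%, in the rest of chromosome IV, against 0.667% of evenly spaced ones, and in 26 of 669, or 3.89%, on the other nuclear chromosomes, against 0.511%. The tRNA-Ala member is the one of the 6 that holds it outside the printed 151 bases. The near-copies at ntl-11 and Y73F8A.27 count as a pair among the 6, and the thresholded members were richer in GC, with 39.9%, than the 32.96% of even windows. The part of composition was not tested.

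Genes of the piRNA pathway itself lie mostly outside the clusters. Of the 30 genes on a list of factors for 21ur transcription, processing and silencing, 29 were matched by symbol, and 6, or 20.7%, had a pooled summit within 500 bp of the 5' end, against 30.2% of all protein-coding genes. A thresholded summit lay there for 0 of the 29, against 2.06% of all protein-coding genes, and with 29 genes neither count is read as particular to the list. The pooled summit among the factors for 21ur transcription was at snpc-4, with a signal value of 16.96. Among processing genes these were tofu-1, with 53.5, and pid-3, with 25.6. The silencing genes were pid-2, with 30.9, mut-2, with 19.8, and rrf-1, with 15.7. Over the nuclear genome the lowest pooled value was 15.1 and the lower quartile 18.1. The values at snpc-4 and rrf-1 thus lay near the floor of a list that includes background regions. Of the 6, only tofu-1, pid-3 and pid-2 also had a summit in each replicate list, with 28.4 in replicate 1 and 24.1 in replicate 2 for tofu-1. Neither prg-1, for the piRNA Argonaute, nor prde-1 had a summit within 500 bp in any of the 3 lists.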

How the data were processed

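ChIP-seq of tagged F22D6.2 was deposited as peak lists. Per the labels, the pooled and replicate lists hold peaks and background regions as input for an irreproducible discovery rate step, and the thresholded set holds the 798 peaks that passed it. In each list the authors deposited a signal value, a −log10 q-value, which reached a ceiling of 2.44, and the summit's offset from the start of the interval. For the scale of the signal, the aligner, the peak caller and their versions, nothing was given in the sources used here. Read depth is unknown, so no interval that needs it was computed. The ce10 lists were not used and no coordinates were converted.

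Summits were placed on ce11 (WBcel235), counted from 1, and compared with Ensembl release 115 genes and RefSeq sequence in Python 3.11.15 with pandas 2.3.3, numpy 2.4.6, scipy 1.17.1 and matplotlib 3.10.9, checked on simulated data. Summits within 100 bp counted as shared. Annotation classes were filled in a fixed order. First came 500 bp around protein-coding 5' ends, then 200 bp around tRNA, snRNA, snoRNA or rRNA genes. Coding exon, UTR, intron and intergenic followed in that order. The piRNA genes had no class of their own. Even positions lay every 100 bp, so their 300 bp windows overlap. The members and lists were chosen with earlier results of these data known.

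Members were named by rule: the 12 highest thresholded, the 3 highest per cluster, the 5 21ur genes closest to a thresholded summit, the 3 highest members within 50 bp of a 21ur 5' end, the 3 highest peaks elsewhere on the chromosome, the 2 with the most different replicate ranks, the windows with most and fewest members with the longest gaps, and pathway genes with a summit. Other members with a printed sequence, those at tRNA genes and those in nhr-46 introns were chosen after their values were seen. Alternatives were single replicates, other borders, merged intervals, other list sizes, distances, windows and motif, and matched stretches. Those on GC content, q-value and unique sequence were added after the data were seen.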

Additional observations from a re-analysis of the deposited data

How the results depend on the processing

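Of 74 recomputed values, 54 moved by less than the SD of the replicate lists (for the replicate overlap, by less than its binomial interval), and 20 moved by more. That SD rests on the values of the 2 replicate lists. Those values are also among the 74, so their part of the count is not independent of it. For the ratio of clusters to the rest of chromosome IV in listed regions per Mb, matched stretches gave 0.833. The ratio of thresholded shares, 1.05, was 0.953 with the 1600 highest regions and 1.03 to 1.14 with 1 replicate left out, so it fell on both sides of 1. The ratio of median signal values was 0.955 to 0.986 with 1 replicate left out. Summits near 21ur ends over even positions gave 0.707 within 250 bp, 0.835 within 1000 bp, 0.945 within GC classes and 0.807 to 0.847 with 1 replicate left out. The ratio of 21ur genes with a listed summit, 0.610, was 0.558 with windows of at least 20 21ur genes, 0.568 within 250 bp, 0.649 within 1000 bp and 0.567 to 0.585 with 1 replicate left out. With a thresholded summit, where 1 gene stands in the rest of the chromosome, 1.15 became 0.823 with those windows, 0.754 with the 1600 highest and 0.646 within 1000 bp. Protein-coding 5' ends gave 0.789 with 200 kb trimmed off each side. The motif ratio of summit windows, clusters over rest, was 7.02, and it was 8.04 with those windows and 1.15 for GTTTC. Evenly spaced windows also differed, with the motif in 20.9% in the clusters and 2.31% in the rest. Both shares were above the 13.1% and 1.87% of summit windows. The GC difference was -1.52 to -1.12 percentage points with 1 replicate left out. The causes were not tested. The replicate overlap has no value in 1 replicate, and the thresholded 21ur ratio has none with the 400 highest or within 250 bp, where no gene stands in the rest. No paired analysis was possible because the study has 1 group. Unknown depth limits what the absence of a summit can show.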
